A study of Mus musculus with 6 samples.

Results

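The genes described here are 45 genes that act in mitosis, the step in which a cell condenses its chromosomes, attaches them to a spindle of microtubules and divides. They were chosen by name as a list of mitosis and spindle genes and found by symbol among the 28773 gene IDs of each file. All 45 were present, and all 45 had a mean FPKM of at least 1 over the 6 samples, the minimum for the test. FPKM counts the fragments of a gene relative to the length of its transcript and to the mapped fragments of the library.

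The RNA-seq samples were splenic CD8+ T cells taken on day 35, in 2 groups of 3 samples. In the MWA+PBS group, the primary tumor was destroyed by microwave ablation (MWA, heating through a needle antenna) and the mice were then injected with PBS. In the MWA+2DG group, the ablation was followed by repeated injections of 2-deoxy-D-glucose (2DG), a glucose analogue that blocks the first steps of glycolysis. Tumor implantation and ablation were therefore common to all 6 samples, and mice without ablation or given 2DG alone were not analysed here. The methods name female mice and a CD8+ T cell isolation kit used after lysis of red cells. The labels give no strain, age or tumor line for these samples, and do not say whether a sample is 1 mouse or a pool, so the p-values measure the spread between these samples, which may be technical. The comparison asks how 2DG given after ablation changed the transcripts of splenic CD8+ T cells.

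Most mitotic genes are transcribed late in the cell cycle, between DNA synthesis and division, and are silent in resting cells. In a resting cell the DREAM complex, which contains the MuvB proteins, holds their promoters off, and in a dividing cell MuvB joins B-Myb and FoxM1 to turn them on. MuvB binds a short promoter element called the CHR (cell cycle genes homology region), often with CCAAT boxes, the binding sites of the factor NF-Y, upstream of it. A naive or memory CD8+ T cell is mostly at rest, and divides fast after it meets antigen, so the level of these transcripts is commonly read as a sign of how many cells in a sample were cycling. In bulk samples, fewer cells of a type and less RNA per cell cannot be told apart.

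Promoter sequence is shown first, since most of the genes hold these elements near their start. RefSeq promoter windows (GRCm38.p6, 300 bases, from 250 before the transcription start to 50 from it on) matched 36 of the 45 genes by symbol. The 9 members without a window were Aurkb, Stmn1, Foxm1, Incenp, Ccna2, Spc24, Kif20a, Smc4 and Tpx2. The 10 stretches below run from 100 bases before the start to 30 from it on, 5′ to 3′ on the strand of the gene, with matches in capitals. A CHR was searched as TTTGAA or TTCGAA, and a CCAAT box as CCAAT, on both strands. On the other strand TTTGAA reads TTCAAA and CCAAT reads ATTGG, while TTCGAA reads the same on both. The first 8 are from genes with lower transcript levels in MWA+2DG that hold both elements, Kif23 holds both and did not pass the test, and Ccnb1 was lower with no CHR match in its window.
Ccnb2: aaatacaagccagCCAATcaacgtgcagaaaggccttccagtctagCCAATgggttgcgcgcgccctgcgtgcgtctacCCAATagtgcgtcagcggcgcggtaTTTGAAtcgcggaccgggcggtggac
Cdk1: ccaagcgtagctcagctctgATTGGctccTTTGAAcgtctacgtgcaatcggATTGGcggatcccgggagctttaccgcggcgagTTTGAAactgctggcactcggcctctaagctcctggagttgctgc
Cdc20: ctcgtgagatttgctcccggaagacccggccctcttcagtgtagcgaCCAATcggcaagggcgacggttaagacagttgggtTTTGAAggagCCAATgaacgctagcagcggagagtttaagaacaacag
Top2a: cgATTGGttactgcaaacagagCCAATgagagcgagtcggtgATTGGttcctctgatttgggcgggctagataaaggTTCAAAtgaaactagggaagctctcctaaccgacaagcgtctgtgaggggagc
Kif11: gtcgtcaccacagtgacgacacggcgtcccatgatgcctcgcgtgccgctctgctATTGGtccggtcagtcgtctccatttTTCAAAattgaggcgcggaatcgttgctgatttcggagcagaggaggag
Ttk: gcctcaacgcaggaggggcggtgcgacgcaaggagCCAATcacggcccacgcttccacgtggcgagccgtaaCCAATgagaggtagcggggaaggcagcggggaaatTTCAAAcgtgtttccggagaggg
Hmmr: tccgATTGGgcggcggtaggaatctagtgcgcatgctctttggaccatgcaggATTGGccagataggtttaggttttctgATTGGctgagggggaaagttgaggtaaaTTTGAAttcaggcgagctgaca
Bub1: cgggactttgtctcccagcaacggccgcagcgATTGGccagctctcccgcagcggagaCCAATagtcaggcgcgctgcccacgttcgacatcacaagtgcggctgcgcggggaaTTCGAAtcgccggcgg
Kif23: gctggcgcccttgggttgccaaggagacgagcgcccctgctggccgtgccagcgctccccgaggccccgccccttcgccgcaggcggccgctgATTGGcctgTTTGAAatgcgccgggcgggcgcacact
Ccnb1: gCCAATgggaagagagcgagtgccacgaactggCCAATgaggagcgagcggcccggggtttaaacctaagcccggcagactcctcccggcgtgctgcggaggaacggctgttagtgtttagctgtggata

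These stretches lie at chr9:70421525-70421654 (Ccnb2), chr10:69352883-69353012 (Cdk1), chr4:118437314-118437443 (Cdc20), chr11:99024160-99024289 (Top2a), chr11:40733408-40733537 (Hmmr), chr2:127831830-127831959 (Bub1), chr9:61946770-61946899 (Kif23) and chr13:100786457-100786586 (Ccnb1), all on the minus strand, and at chr19:37376282-37376411 (Kif11) and chr9:83834589-83834718 (Ttk) on the plus strand. In Ccnb2, which encodes a mitotic cyclin, CCAAT boxes begin at positions -87, -54 and -21 and a CHR at position 5, counted from 1 at the first transcribed base and from -1 just before it. Cdk1 has CHR matches from positions -71 and -15, and CCAAT boxes on the other strand from positions -80 and -48. In Kif23 a CCAAT box on the other strand begins at -7 and a CHR at 3.

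Of the 37 windows of the members (Prc1 has 2 that overlap), 31 held a CHR match, 83.8%, beside 19.2% of all 32851 windows and 14.3% of the 10555 windows of tested genes. Within 50 bases of the start the shares were 75.7% of the members' windows and 5.31% of all windows. A CCAAT box lay in 81.1% of the members' windows and in 37.4% of all windows. Both elements were in 28 of the 37 windows, 75.7%, against 7.52% of all windows, and both within 50 bases of the start in 45.9% against 0.886%. A match describes letters in a window and is not by itself a binding site.

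**Figure D1:**
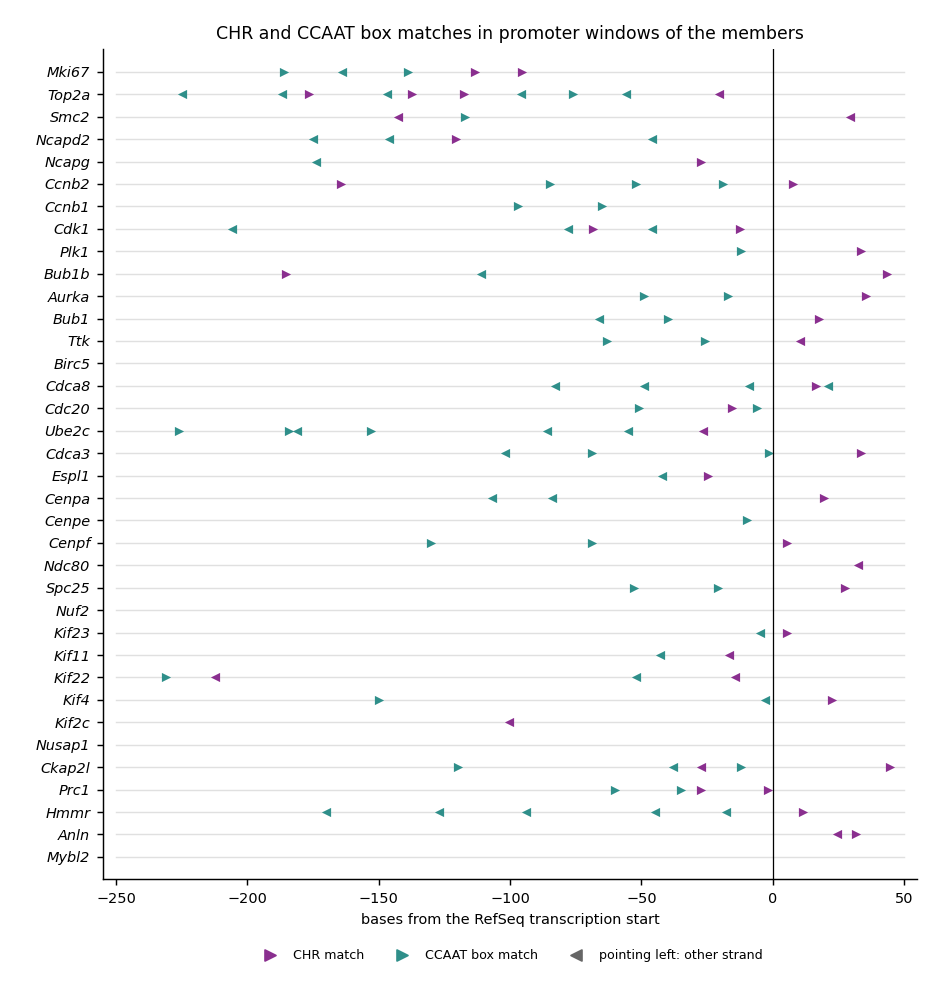
Matches of the CHR (purple) and the CCAAT box (teal) in the RefSeq promoter windows of 36 members, by distance in bases from the transcription start (horizontal axis), with 1 row per gene and triangles that point left for matches on the other strand. CHR matches cluster around the start, with CCAAT boxes mostly upstream of it, and Birc5, Nuf2, Nusap1 and Mybl2 have neither.

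Transcripts of 42 of the 45 mitotic genes were lower in MWA+2DG than in MWA+PBS, 1 was higher (Smc4, though at -0.013 on the log2 scale when libraries are scaled to T lineage genes) and 2 did not pass the test (Spc25 and Kif23). A gene is called lower or higher here where limma, fitted over all 12444 tested genes, gave an adjusted p (Benjamini-Hochberg) under 0.05. Of those genes, 17.1% were called lower and 22.3% higher. The same 42, 1 and 2 genes were obtained with the rule of the study's methods (P under 0.05 and a log2 fold change beyond 0.25), by which 16.6% of all tested genes were lower and 21.6% higher. The median log2 fold change, on the log2(FPKM + 1) scale, was -0.66 over the members and 0.05 over all tested genes. Since 26 of the members had a mean FPKM under 5, where adding 1 shrinks a fold change, the FPKM ratios are given too. The 42 lower genes stood at 40.6% to 80.1% of their MWA+PBS level, with a median of 53.5%. Of the 42, 33 were under 60%, 6 between 60% and 75%, and 3 above 75%. For all 42, each MWA+2DG sample was below each MWA+PBS sample, a separation that 21.9% of all tested genes showed in that direction. For Smc4 the groups were separated the other way, as for 30.2% of tested genes. Beyond a log2 fold change of 1, where 3.86% of tested genes were lower and 1.18% higher at P under 0.05, there was 1 member, Aurkb, which was lower. That count depends on the scale and on single samples, with 2 members without MWA+2DG replicate 4 (3.96% of tested genes), 3 without MWA+2DG replicate 6 (3.91%), and 12 with a pseudocount of 0.1 in place of 1, where 5.92% of tested genes were lower beyond 1. By FPKM ratio, 15 members stood under 50% of the MWA+PBS level.

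The samples of a group were close to each other for these genes. The coefficient of variation within a group had a median of 8.59% in MWA+PBS and 8.23% in MWA+2DG, and the highest was 27.5%. Within MWA+PBS, replicate 2 was the highest sample for 28 of the 45 members and replicate 3 the lowest for 24. Within MWA+2DG, replicates 4, 5 and 6 were the highest for 11, 15 and 19 members. Summed over all 45 members, the level was 409 to 446 FPKM in MWA+PBS and 295 to 315 FPKM in MWA+2DG, and without Smc4, the most abundant of them, 332 to 349 and 191 to 197 FPKM. When each sample was left out in turn, 39 to 41 members were called lower by adjusted p, beside 13.1% to 17.8% of tested genes.

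FPKM is relative to the whole library, and other cells contributed to these libraries, so the members were also scaled to 17 T lineage genes such as the T cell receptor and CD3 genes. This lowered every fold change by 0.40 on the log2 scale and moved the median of all tested genes from 0.05 to -0.36, with 8172 genes lower and 524 higher, in place of 2134 and 2773. The median of the members became -1.07. With this scaling 44 members were called lower by adjusted p, and Smc4, the remaining member, had a log2 fold change of -0.013.

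**Figure D2:**
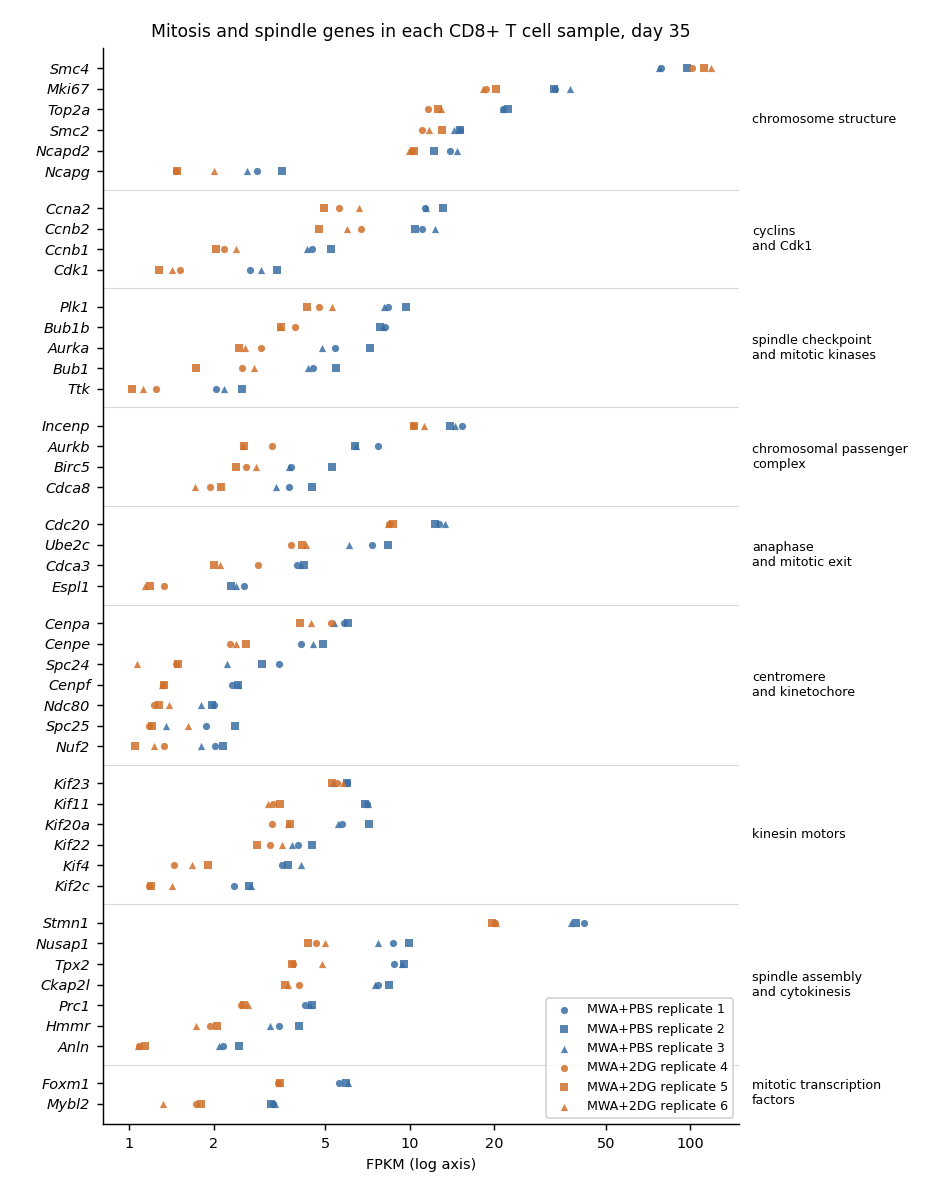
FPKM (horizontal log axis) of the 45 genes in each sample, grouped by role and ordered by mean level, with blue for the 3 MWA+PBS and orange for the 3 MWA+2DG samples and 1 marker shape per replicate. For 42 genes the orange points lie left of the blue points, for Smc4 they lie right of them on this unscaled FPKM axis (log2 fold change -0.013 with T lineage scaling), and for Spc25 and Kif23 the groups overlap.

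Genes of chromosome structure included Smc4, the most abundant member. Mki67, the gene of the Ki-67 protein that coats mitotic chromosomes and marks cycling cells (ENSMUSG00000031004), read 32.9, 32.7 and 37.2 FPKM in MWA+PBS and 18.7, 20.3 and 18.2 in MWA+2DG. Its mean fell to 55.6% of the MWA+PBS level (log2 fold change -0.81, SE 0.0712, adjusted p = 0.000127). Top2a, the topoisomerase that untangles sister chromatids, changed from 21.8 ± 0.466 to 12.4 ± 0.677 FPKM (mean ± SD, n = 3, log2 fold change -0.76, SE 0.0577, adjusted p = 6.15e-05). The groups were far apart for both genes, and the samples within a group were within a few FPKM of each other.

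On the FPKM scale, the 4 condensin genes among the members were not all called in the same direction. Condensins are ring-shaped complexes that compact chromosomes, and Smc2 and Smc4 form the core pair of every condensin. Smc4 (ENSMUSG00000034349) read 78.9, 97.2 and 77.4 FPKM in MWA+PBS and 101, 112 and 118 in MWA+2DG (log2 fold change 0.39, SE 0.0998, adjusted p = 0.0182). All 3 MWA+2DG samples were above the 3 MWA+PBS samples, with MWA+PBS replicate 2 close under MWA+2DG replicate 4. Smc2 (ENSMUSG00000028312) read 15.1, 15.1 and 14.4 FPKM in MWA+PBS and 11.0, 12.98 and 11.7 in MWA+2DG (log2 fold change -0.30, SE 0.0683, adjusted p = 0.0112). The 3 MWA+2DG samples were below the 3 MWA+PBS samples, the opposite order to Smc4. The ratio of Smc4 to Smc2, formed after their values were seen, came to 5.24, 6.43 and 5.37 in MWA+PBS samples and to 9.18, 8.65 and 10.1 in MWA+2DG samples, a quantity that scaling of the libraries does not alter. The condensin I subunits Ncapd2 (-0.39 on the log2 scale) and Ncapg (-0.59) were lower. Of 4 further condensin genes in the list of other mitotic genes, Ncaph (-0.46) and Ncapg2 (-0.67) were lower, and Ncapd3 (0.10) and Ncaph2 (-0.03) were not called. The higher call of Smc4 was lost at the adjusted threshold without MWA+PBS replicate 1 (adjusted p = 0.0639), MWA+PBS replicate 3 (0.0554), MWA+2DG replicate 5 (0.0541) or MWA+2DG replicate 6 (0.0628), with fold changes between 0.33 and 0.49 over all 6 omissions.

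All 4 genes of the mitotic cyclins and their kinase were lower, with a median log2 fold change of -0.84. Ccna2, encoding cyclin A, which acts in DNA synthesis and entry into mitosis (ENSMUSG00000027715), read 11.3, 13.2 and 11.4 FPKM in MWA+PBS and 5.57, 4.95 and 6.58 in MWA+2DG (log2 fold change -0.96, SE 0.103, adjusted p = 0.000337). Ccnb2, encoding a B-type cyclin that drives mitosis (ENSMUSG00000032218), read 11.0, 10.4 and 12.3 FPKM in MWA+PBS and 6.68, 4.75 and 5.97 in MWA+2DG (log2 fold change -0.86, SE 0.114, adjusted p = 0.000959). In both, the highest MWA+2DG sample was well under the lowest MWA+PBS sample. Ccnb1, the main mitotic cyclin, and Cdk1, the kinase that these cyclins activate, stood at 47.2% and 46.8% of their MWA+PBS level (-0.82 and -0.73 on the log2 scale). Ccnb1 fell with no CHR match in its window, and Cdk1 with 2 of them in the sequence above.

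The 5 genes of the spindle checkpoint and mitotic kinases were all lower as well, with a median of -0.80. The checkpoint delays the separation of chromosomes until every one is attached. Plk1, the polo kinase that acts at centrosomes and kinetochores (ENSMUSG00000030867), read 8.38, 9.65 and 8.11 FPKM in MWA+PBS and 4.73, 4.30 and 5.28 in MWA+2DG (log2 fold change -0.75, SE 0.0903, adjusted p = 0.00058). Bub1b, the gene of the checkpoint protein BubR1 (ENSMUSG00000040084), read 8.15, 7.82 and 8.02 FPKM in MWA+PBS and 3.89, 3.46 and 3.44 in MWA+2DG (log2 fold change -0.97, SE 0.0662, adjusted p = 3.8e-05), the third largest decrease of the members on the log2(FPKM + 1) scale. The samples of each group lay close together for Bub1b, and for both genes the groups were far apart. Aurka, the kinase that matures centrosomes, stood at 45.7%, Bub1, a checkpoint kinase, at 49.0% and Ttk, the kinase Mps1 that starts checkpoint signalling, at 50.3% of the MWA+PBS level.

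The 4 subunits of the chromosomal passenger complex, which corrects faulty attachments and then moves to the cleavage site, were all lower, with a median of -0.63. Aurkb, its kinase (ENSMUSG00000020897), had the largest decrease of all members, on that scale and as a ratio, and read 7.72, 6.39 and 6.43 FPKM in MWA+PBS and 3.22, 2.57 and 2.55 in MWA+2DG (log2 fold change -1.05, SE 0.102, adjusted p = 0.000204). Incenp, its scaffold (ENSMUSG00000024660), was the most abundant subunit and read 15.3, 13.9 and 14.5 FPKM in MWA+PBS and 10.3, 10.4 and 11.2 in MWA+2DG (log2 fold change -0.42, SE 0.0621, adjusted p = 0.00154). The groups did not overlap for either gene, and the MWA+2DG samples held 40.6% of the MWA+PBS level of Aurkb and 72.8% of that of Incenp. Their ratio, Incenp over Aurkb, also formed after the values were seen, averaged 2.14 ± 0.137 in MWA+PBS and 3.87 ± 0.622 in MWA+2DG (SD, n = 3). Cdca8 (borealin) and Birc5 (survivin), the subunits that bring the complex to centromeres, had log2 fold changes of -0.72 and -0.53.

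Genes of anaphase and exit from mitosis were lower in 4 of 4 cases, with a median of -0.62. Cdc20, which activates the anaphase-promoting complex (ENSMUSG00000006398), read 12.7, 12.3 and 13.3 FPKM in MWA+PBS and 8.46, 8.69 and 8.39 in MWA+2DG (log2 fold change -0.53, SE 0.0556, adjusted p = 0.000292). Ube2c, the ubiquitin-conjugating enzyme of that complex (ENSMUSG00000001403), read 7.35, 8.35 and 6.09 FPKM in MWA+PBS and 3.78, 4.12 and 4.27 in MWA+2DG (log2 fold change -0.70, SE 0.106, adjusted p = 0.0018). Both were lower in each MWA+2DG sample than in any MWA+PBS sample. Espl1, the separase that cuts cohesin, fell to 50.2%, and Cdca3, a mitotic entry factor, to 57.1% of the MWA+PBS level.

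Of the 7 centromere and kinetochore genes, which build the site where microtubules grip the chromosome, 6 were lower, with a median over the 7 of -0.44, nearer to 0 than that of most other roles. Cenpa, the histone variant that marks centromeres (ENSMUSG00000029177), read 5.84, 6.04 and 5.38 FPKM in MWA+PBS and 5.22, 4.05 and 4.45 in MWA+2DG (log2 fold change -0.28, SE 0.0912, adjusted p = 0.0431). MWA+2DG replicate 4 was only slightly under MWA+PBS replicate 3 for this gene, and its call was lost when MWA+PBS replicate 1, 2 or 3 or MWA+2DG replicate 5 or 6 was left out, at adjusted p of 0.0537 to 0.118. Cenpe, a kinetochore motor (ENSMUSG00000045328), read 4.08, 4.90 and 4.53 FPKM in MWA+PBS and 2.29, 2.61 and 2.39 in MWA+2DG (log2 fold change -0.68, SE 0.0835, adjusted p = 0.000637), with the groups far apart. Cenpf, a large kinetochore protein, was at 55.1% of its MWA+PBS level.

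Ndc80, Nuf2, Spc24 and Spc25 encode the rod-shaped complex that binds microtubules directly, and all 4 had low levels. Spc25 (ENSMUSG00000005233) read 1.88, 2.38 and 1.35 FPKM in MWA+PBS and 1.17, 1.20 and 1.62 in MWA+2DG. MWA+PBS replicate 3 lay below MWA+2DG replicate 6, so the groups overlapped, and the difference did not pass the test (log2 fold change -0.29, SE 0.151, adjusted p = 0.166, 95% interval -0.64 to 0.06). It passed with T lineage scaling (-0.69, adjusted p = 0.00294) and with GC and length trends removed (-0.38, 0.0486), and ranged from -0.16 without MWA+PBS replicate 2 to -0.43 without MWA+PBS replicate 3, not called in any of the 6 omissions. Its partner Spc24 was at 46.7% of the MWA+PBS level (-0.72 on the log2 scale), and Nuf2 and Ndc80 had log2 fold changes of -0.44 and -0.35. Without MWA+PBS replicate 1 or MWA+2DG replicate 4 the adjusted p of Ndc80 was 0.0563 or 0.0522.

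Of 6 kinesins, motor proteins that walk along spindle microtubules, 5 were lower. Kif11, the motor that pushes the spindle poles apart (ENSMUSG00000012443), read 7.01, 6.92 and 7.09 FPKM in MWA+PBS and 3.25, 3.43 and 3.11 in MWA+2DG (log2 fold change -0.91, SE 0.0623, adjusted p = 3.88e-05). The 3 values of each group were almost the same, and the level in MWA+2DG was 46.6% of that in MWA+PBS. Kif23, the motor of the central spindle needed for cytokinesis (ENSMUSG00000032254), read 5.95, 5.97 and 5.33 FPKM in MWA+PBS and 5.51, 5.28 and 5.78 in MWA+2DG (log2 fold change -0.05, SE 0.069, adjusted p = 0.61, 95% interval -0.21 to 0.11). Its groups overlapped, and with the T lineage scaling its log2 fold change was -0.45 and passed the test. Racgap1, the partner of Kif23 in the centralspindlin complex and not on the list, read 29.4, 30.5 and 27.0 FPKM in MWA+PBS and 21.2, 21.2 and 20.8 in MWA+2DG (log2 fold change -0.44, SE 0.0584, adjusted p = 0.000953). In MWA+PBS the ratio of Kif23 to Racgap1, chosen after the values were seen, was 0.198 ± 0.00339, and in MWA+2DG it was 0.262 ± 0.0144 (SD, n = 3). Kif4 (chromokinesin), Kif2c (a microtubule depolymerase), Kif20a (a cytokinesis motor) and Kif22 (a chromokinesin) had log2 fold changes of -0.83, -0.66, -0.65 and -0.29. Kif22 missed the adjusted threshold without MWA+PBS replicate 1 or 2 or MWA+2DG replicate 4 or 5, at adjusted p of 0.0784 to 0.0985.

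All 7 genes of spindle assembly and cytokinesis were lower, with a median of -0.78. Stmn1, encoding stathmin, which destabilizes microtubules until it is phosphorylated in mitosis (ENSMUSG00000028832), read 41.8, 39.1 and 37.6 FPKM in MWA+PBS and 20.2, 19.6 and 20.2 in MWA+2DG (log2 fold change -0.95, SE 0.0559, adjusted p = 1.79e-05). Nusap1, which bundles microtubules near chromosomes (ENSMUSG00000027306), read 8.71, 9.91 and 7.68 FPKM in MWA+PBS and 4.62, 4.35 and 4.99 in MWA+2DG (log2 fold change -0.78, SE 0.0948, adjusted p = 0.000593). Tpx2, which activates Aurora A and seeds spindle microtubules (ENSMUSG00000027469), read 8.81, 9.52 and 9.41 FPKM in MWA+PBS and 3.83, 3.79 and 4.87 in MWA+2DG (log2 fold change -0.99, SE 0.0917, adjusted p = 0.000164), the second largest decrease on the log2(FPKM + 1) scale. For these 3 genes the lowest MWA+PBS sample was well above the highest MWA+2DG sample. The others were Ckap2l (-0.89), Hmmr (-0.64), the anillin gene Anln (-0.62) and Prc1, which crosslinks the microtubules of the midzone (-0.59).

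Both mitotic transcription factors of the list were lower. Foxm1 (ENSMUSG00000001517) read 5.59, 5.90 and 6.0 FPKM in MWA+PBS and 3.38, 3.44 and 3.41 in MWA+2DG (log2 fold change -0.63, SE 0.0619, adjusted p = 0.00022). Mybl2, the gene of B-Myb (ENSMUSG00000017861), read 3.26, 3.20 and 3.30 FPKM in MWA+PBS and 1.73, 1.80 and 1.32 in MWA+2DG (log2 fold change -0.71, SE 0.0946, adjusted p = 0.000996). Foxm1 was nearly constant within each group, and Mybl2 was lowest in MWA+2DG replicate 6.

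**Figure D3:**
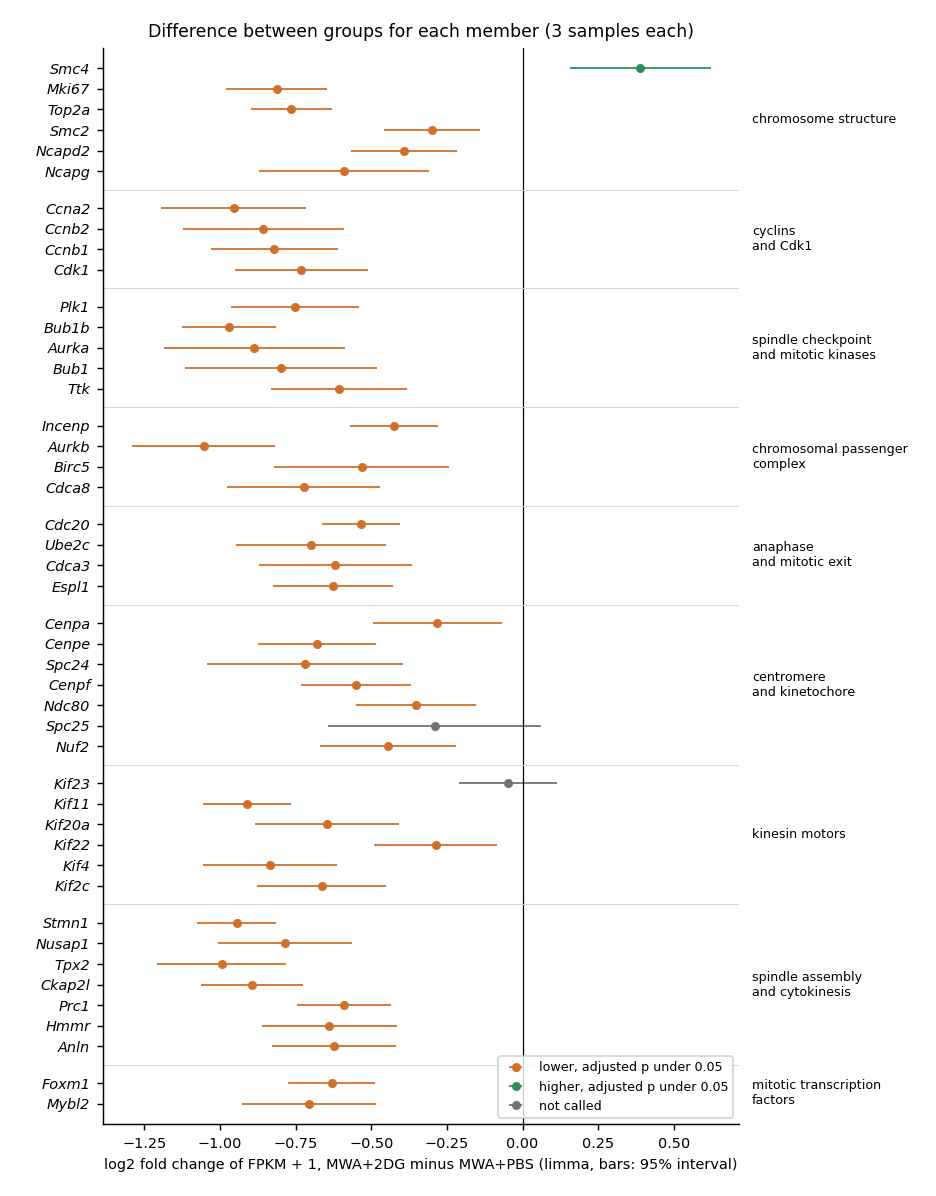
Log2 fold change of FPKM + 1, MWA+2DG minus MWA+PBS (horizontal axis), for each of the 45 genes with its 95% interval from limma, by role and 3 samples per group. The 42 orange intervals lie below 0, Smc4 (green) lies above 0 (at -0.013 with T lineage scaling), and those of Spc25 and Kif23 (grey) include 0.

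The lower level was seen in genes with and without a match to the searched letters. Other spellings of the elements were not searched, so a gene without a match may still hold one. Among members with a window, the 30 with a CHR match had a median log2 fold change of -0.63 and 28 were called lower. The 6 without one (Ccnb1, Birc5, Cenpe, Nuf2, Nusap1 and Mybl2) had a median of -0.69 and all 6 were called lower. With and without a CCAAT box the medians were -0.68 (29 genes) and -0.62 (7 genes). Members without a window, among them Aurkb (-1.05), Tpx2 (-0.99) and Smc4 (0.39), are in none of these groups.

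Lists of related genes were examined next, with the same fit, in which 17.1% of all tested genes were called lower and 22.3% higher. Of 71 other mitotic genes, 60 were tested, 35 were lower and 1 was higher, with a median log2 fold change of -0.34. On the log2(FPKM + 1) scale, the largest decreases among tested genes were in Cks2 and Cks1b, small subunits that bind Cdk1, and in Pbk, a mitotic kinase. Cks2 read 14.5, 16.6 and 10.5 FPKM in MWA+PBS and 6.29, 6.75 and 5.85 in MWA+2DG (log2 fold change -1.0, SE 0.149, adjusted p = 0.00161), and MWA+PBS replicate 3 was the lowest of its group but still above each MWA+2DG sample. Cks1b and Pbk had log2 fold changes of -0.81 and -0.78. Haspin, a kinase that phosphorylates histone H3 and so places the passenger complex, was the gene called higher and read 4.77, 4.74 and 5.02 FPKM in MWA+PBS and 6.87, 7.64 and 6.67 in MWA+2DG (log2 fold change 0.46, SE 0.069, adjusted p = 0.00167), a call lost with T lineage scaling (0.06, adjusted p = 0.562) and in none of the other alternatives.

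DNA replication genes were also mostly lower or not called. Of 54, 53 were tested, 24 were lower and 2 higher, with a median of -0.22. E2f8, a repressor of the E2F family, had the largest change on the log2(FPKM + 1) scale and read 6.03, 5.88 and 6.27 FPKM in MWA+PBS and 2.54, 2.50 and 2.33 in MWA+2DG (log2 fold change -1.03, SE 0.0661, adjusted p = 2.8e-05). Ccne2, encoding a cyclin E, and Uhrf1, which maintains DNA methylation, had log2 fold changes of -0.81 and -0.81. Pole2, a subunit of DNA polymerase epsilon (0.45), and Gins3, a subunit of the replicative helicase (0.32), were higher. These 2 calls were weak. Both were lost without a filter or with median ratio scaling, and 1 gene of the list was called higher with a pseudocount of 0.1, quantile normalization, a mean of at least 5 FPKM or no trend in the variances. With T lineage scaling both were lost too (Pole2 at 0.05, adjusted p = 0.762, and Gins3 at -0.09, adjusted p = 0.511). Pole2 was also not called with GC and length trends removed (adjusted p = 0.0504). Neither of the 2 genes was called in the fits without MWA+PBS replicate 1, MWA+PBS replicate 3, MWA+2DG replicate 5 or MWA+2DG replicate 6.

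Subunits of complexes that act in mitosis but are present through the cell cycle had medians near that of all tested genes on the FPKM scale. Of 15 subunits of the anaphase-promoting complex, the ubiquitin ligase that Cdc20 activates, 3 were called, all higher, beside 22.3% of all tested genes. They were Anapc4 (0.45), Anapc11 (0.29) and Cdc23 (0.27), and the median of the list was 0.13. The 3 became 1 without MWA+PBS replicate 3 or MWA+2DG replicate 4. Of 10 cohesin subunits and loaders, which hold sister chromatids together, Rad21 was lower (-0.19) and Stag1 higher (0.21), with a median of 0.07. The call of Rad21 was lost without MWA+PBS replicate 1, MWA+2DG replicate 4 or MWA+2DG replicate 5, and that of Stag1 without MWA+PBS replicate 1, MWA+PBS replicate 3, MWA+2DG replicate 5 or MWA+2DG replicate 6. Stag1 was also not called with quantile normalization (adjusted p = 0.0595), median ratio scaling (0.0732) or GC and length trends removed (0.0672). With T lineage scaling Stag1 was called lower (-0.20, adjusted p = 0.0385).

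Of 14 regulators of the DREAM and MuvB complexes, 1 was lower and 4 were higher, with a median of 0.04. Over all tested genes 17.1% were lower and 22.3% higher, so these counts are not read as a result about the list. Cdkn1a, the p21 inhibitor of cyclin kinases, read 1.70, 1.76 and 1.74 FPKM in MWA+PBS and 0.53, 0.83 and 0.79 in MWA+2DG (log2 fold change -0.68, SE 0.106, adjusted p = 0.00208). Lin37, a MuvB subunit (0.35), E2f5, a repressive E2F (0.32), and the pocket protein genes Rb1 (0.24) and Rbl2 (0.18) were higher. The 4 became 1 without MWA+PBS replicate 1, MWA+2DG replicate 4 or MWA+2DG replicate 6, and 2 without MWA+PBS replicate 3 or MWA+2DG replicate 5. With the T lineage scaling, a common shift of all genes under which 65.7% of tested genes were called lower, the calls in these 3 lists were all lower too (8, 10 and 10 genes), a turn that the shift itself brings about.

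**Figure D4:**
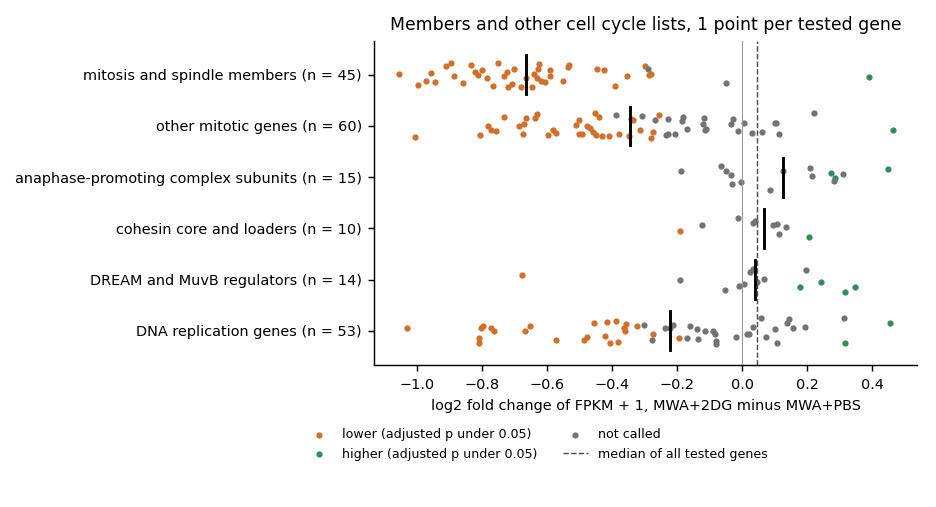
Log2 fold change of FPKM + 1, MWA+2DG minus MWA+PBS (horizontal axis), with 1 point per tested gene of each list, a black bar at the list median and a dashed line at the median of all tested genes. The medians are -0.66 for the 45 members, -0.34 for other mitotic genes and -0.22 for DNA replication genes, and 0.13, 0.07 and 0.04 for the anaphase-promoting complex, cohesin and DREAM lists, all before the common shift of T lineage scaling, which moves the dashed line to -0.36 and turns the calls of the last 3 lists to lower.

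Markers of the cells a spleen isolate can hold were read in the same libraries. Each sample had 22414 to 23340 genes above 0 and a summed FPKM of 291803 to 313257, with 19.4% to 22.8% of it in mitochondrial genes. The labelled cell type was present, since the CD8 genes Cd8a and Cd8b1 summed to 546 to 572 FPKM in MWA+PBS and 813 to 871 FPKM in MWA+2DG. Both were called higher, at log2 fold changes of 0.66 and 0.55, as were 14 of 17 T lineage genes, for example Trbc2 (0.57) and Trac (0.56), with sums of 1510 to 1621 and 2080 to 2239 FPKM. Of the CD4 T cell list, 6 of 7 genes were tested and 2 were lower and 1 higher, with sums of 14.9 to 16.2 and 14.1 to 15.7 FPKM. The lower genes were Cd4 itself (-0.50) and Zbtb7b (-0.51), and the higher one was Izumo1r (0.39). The members fell while the T cell genes rose as a share of the library.

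Of the lists of other cells that can divide, the erythroid and blood progenitor lists were lower, and the early granulocyte list held calls in both directions. All 10 tested of 17 erythroid genes were lower, and their list summed to 304 to 360.1 FPKM in MWA+PBS and 70.5 to 88.6 FPKM in MWA+2DG, with Hba-a1 at -2.17 and Hbb-bs at -1.97. Among the defining erythroid genes, Klf1 read 3.57, 2.82 and 4.29 FPKM in MWA+PBS and 0.73, 0.41 and 0.66 in MWA+2DG. Of 7 early granulocyte genes, 5 were lower and 2 higher (Fcnb at 1.37 and Cebpe at 1.15), with sums of 334 to 391 and 70.4 to 76.2 FPKM, Mpo at -2.72 and Elane at -2.05. All 3 tested of 6 blood progenitor genes were lower, with sums of 15.9 to 17.8 and 4.69 to 4.93 FPKM, Kit at -1.21 and Gata2 at -1.48. Of the list of plasma cells, which mostly no longer divide, 6 of 10 genes were tested, 3 were lower and 1, Irf4, was higher (0.40), with sums of 100.1 to 109.7 and 57.1 to 60.9 FPKM, Jchain at -1.30 and Txndc5 at -0.37. In each of these lists the summed ranges of the groups did not overlap, and their part in the lower level of the mitotic genes was not tested.

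Germinal centre B cell genes were close to the floor, with only Bcl6 of 6 tested (0.20, not called), sums of 3.77 to 4.46 and 4.22 to 4.77 FPKM and S1pr2 at 0.93, 1.04 and 0.88 FPKM in MWA+PBS and 0.81, 0.85 and 0.8 in MWA+2DG. Of the epithelial tumor list, 4 of 6 genes were tested and 1, Krt18, was lower (-0.85). Its sums were 3.16 to 14.8 and 11.8 to 12.3 FPKM, and Krt8 read 0.49, 5.98 and 0 FPKM in MWA+PBS and 4.62, 4.76 and 4.49 in MWA+2DG, so that MWA+PBS replicate 2 stood with the MWA+2DG samples (Krt8 1.36 and Krt19 1.28, neither called). Without that replicate 40 mitotic genes were called lower by adjusted p, beside 17.8% of tested genes.

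The lists of the remaining cell types differed in both directions, and the maturity of those cells was not tested. All 15 monocyte and macrophage genes were lower, with sums of 909 to 983 and 132 to 142 FPKM, Hmox1 at -2.99 and C1qa at -2.63. Of 11 neutrophil genes, 10 were higher, with sums of 66.6 to 91.3 and 1583 to 1763 FPKM, Ngp at 4.48 and S100a9 at 4.65. All 10 tested of 11 B cell genes were higher, with sums of 11.2 to 12.3 and 60.7 to 66.6 FPKM, Cd79b at 1.21 and Cd79a at 2.60. The smaller lists were lower in dendritic cells (2 of 2 tested of 8, Itgax -1.0 and Flt3 -1.23, sums 9.28 to 11.2 and 4.04 to 5.06 FPKM), platelets and megakaryocytes (3 of 4 tested of 6, Pf4 -1.03 and Ppbp -0.91, sums 15.8 to 19.8 and 7.73 to 10.3 FPKM) and natural killer cells (1 tested of 6, Ncr1 -0.35, sums 7.91 to 8.55 and 6.12 to 6.44 FPKM). No gene of any list present in the files was at 0 in all 6 samples. No isolation or sequencing batch is named in the labels, and one aligned with the treatment cannot be told apart from it.

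**Figure D5:**
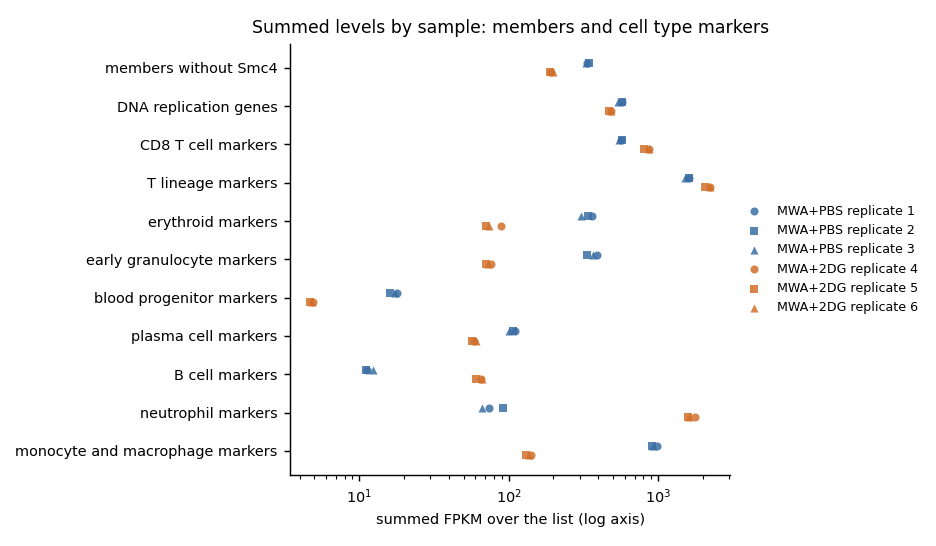
Summed FPKM (horizontal log axis) of the members without Smc4, DNA replication genes and 9 marker lists in each sample, with blue for MWA+PBS and orange for MWA+2DG and 1 marker shape per replicate. The sums of the members without Smc4 (332 to 349 and 191 to 197 FPKM, against 409 to 446 and 295 to 315 FPKM for all 45) were lower in MWA+2DG, as were the erythroid, early granulocyte, progenitor, plasma cell and macrophage sums, while the T lineage, CD8, B cell and neutrophil sums were higher.

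For 9 members a tested gene lies on the opposite strand at the same place, in the GENCODE M21 annotation, and no source used here says whether the FPKM values kept strands apart. These pairs are Top2a with Gm26394, Ncapg with Lcorl, Ccna2 with Exosc9, Cdca8 with 9930104L06Rik, Cdc20 with Elovl1, Kif20a with Cdc23, Kif22 with Gm31749, Kif4 with Pdzd11 and Prc1 with Rccd1. The other 36 members have no tested gene overlapping them, and of these 33 were called lower, 1 higher (Smc4) and 2 neither (Spc25 and Kif23).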

How the data were processed

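Splenic CD8+ T cells of 3 MWA+PBS and 3 MWA+2DG samples, grouped by their GEO labels, were profiled by poly(A) RNA-seq. The authors used fastp for quality control, mapped reads with HISAT2, assembled transcripts with StringTie and deposited FPKM per gene, computed with StringTie and ballgown. The submitters' processing notes also name cutadapt 1.9, HISAT2 2.0.4, UMI-tools, StringTie 1.3.4d and mm9. No source used here gives the annotation or says whether strand or molecular identifiers entered the quantification. The values carry at most 2 decimals and gave back no read counts, so depth is unknown and counting error could not be given. Each FPKM is a share of its library.

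Symbols for 28689 of 28773 IDs came from GENCODE M21. The test was limma 3.58.1 in R 4.3.3 on log2(FPKM + 1), with eBayes and a trend, two-sided, over 12444 genes with a mean FPKM of at least 1, which understates changes of low genes. P-values were adjusted by the Benjamini-Hochberg method over all tested genes. The fit was tested on simulated data. The members and all lists were chosen with earlier results of these data known. Values per sample are given for the 2 members of each role with the highest mean FPKM, for members called higher or not called, and for the 3 largest decreases. Of each pathway list the 3 largest called changes, and calls opposite to the majority where 5 or fewer, are named, and of each marker list the 2 most abundant genes. Values of Smc2, Racgap1, Rb1, Rbl2, Cd4, Klf1, Krt18, Irf4, Fcnb and Cebpe beyond this rule were chosen after they were seen. Alternatives were a pseudocount of 0.1, other filters, quantile, median ratio and T lineage scaling, arrayWeights, eBayes with no trend, a fold threshold of 1 on the log2 scale and leaving out each sample. Correction for GC content and transcript length (loess, span 0.5) was chosen after seeing the data. Promoter windows came from RefSeq (GRCm38.p6) and no coordinates were taken from the mm9 files.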

Additional observations from a re-analysis of the deposited data

How the results depend on the processing

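No paired analysis was run, because no source used here pairs the samples. The titles number the MWA+PBS samples 1 to 3 and the MWA+2DG samples 4 to 6. The FPKM columns number both groups 1 to 3, which does not by itself pair them. Over 15 alternatives, 626 of 649 comparisons of a member kept direction and side of the adjusted threshold, 19 lost the call, 3 gained it and 1 turned, and 39 members kept their call under each alternative they were tested in. The one that turned was Smc4, at -0.0133 with T lineage scaling. The median log2 fold change of the members was -0.86 with a pseudocount of 0.1, -0.76 among members averaging 5 FPKM or more and -1.07 with T lineage scaling. Without a filter, 0 members were called higher by adjusted p (40 lower in limma beside 9.27% of 28458 genes, Smc4 at adjusted p = 0.0509), and with T lineage scaling 0 by either rule, with 44 lower. A mean FPKM of at least 5 left 19 members and 7313 genes, with 17 members lower by either rule, 1164 genes lower and 1787 higher by adjusted p, and 1002 lower and 1560 higher by P and fold. T lineage scaling gave 8172 genes lower and 524 higher by adjusted p and 7683 and 460 by P and fold. At a log2 fold change beyond 1, 1 member was lower (Aurkb) and 0 were higher, beside 3.86% and 1.18% of all tested genes, while 12 members were lower beyond 1 with a pseudocount of 0.1 (5.92% of genes), 30 with T lineage scaling (7.87%), 2 with quantile normalization (3.91%) and 4 with median ratio scaling (4.15%), counts added after the data were seen.

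Leaving out each sample gave 39 to 41 members lower and 0 to 1 higher by adjusted p, 40 to 43 and 1 by P and fold, a median of -0.70 to -0.63, 1631 to 2217 genes lower and 1989 to 2978 higher by adjusted p, and 1959 to 2142 and 2453 to 2927 by P and fold. Outside these omissions, Cenpa and Kif22 lost their call without a filter, Cenpa also with GC and length trends removed (adjusted p = 0.0549), where Spc25 gained one (0.0486). Where a mean of 5 FPKM was required, 15 other mitotic and 31 replication genes were left, and the 7 and 12 of them that had been lower were lower again. T lineage scaling, a common shift, gave 58 and 49 lower. The 4 DREAM genes called higher became 1 without a filter, with quantile or median ratio scaling or without a trend, and the cause of that was not tested. Unknown depth limits the low genes most.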
